A study of Mus musculus with 15 samples.

Results

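The 9 genes described here, Tbx2, Nr2f2, Tcf21, Gli1, Pdgfra, Pdgfrb, Ptch1, Dcn and Lum, are used as markers of the progenitors of the testis interstitium, and were examined in purified germ cells. They were chosen by name from the 54838 genes of the count tables, with earlier results of these data known, and all 9 were found. Counts of members set beside those of all genes are therefore descriptions. The germ cells were gonocytes, the foetal male germ cells, from foetal testes at stage E16.5, purified by fluorescence activated cell sorting for a tdTomato reporter in the Miwi2 gene. The 3 control libraries were Tex15+/-; Miwi2 tdTom/+ and the 3 knockout libraries were Tex15-/-; Miwi2 tdTom/+, so that both groups carried 1 copy of the reporter and every control lacked 1 functional copy of Tex15. All mice were on a mixed B6CBAF1/Crl; C57BL/6N background, and the Tex15 null allele, made by genome editing, came from a single founder. The labels do not say whether the 3 libraries of a group came from separate animals, so p-values measure only the spread between these libraries, which may be technical. The other 9 of the 15 samples of the series, small RNA libraries and libraries of postnatal testis, are not used here.

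Between the seminiferous cords of the foetal testis lies an interstitium of fibroblast-like progenitors, foetal Leydig cells, vessels and macrophages. Sertoli cells inside the cords secrete Desert hedgehog, which binds Patched 1 on interstitial cells and acts through the GLI transcription factors, and platelet-derived growth factor from the cords acts on the PDGF receptors of the same cells. Some of these progenitors give rise to Leydig cells, which make androgens, and many remain as stroma that deposits collagen and proteoglycans. Germ cells are not an interstitial cell type, although Ptch1 is expressed in many tissues.

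The 9 genes fall into 3 kinds. Tbx2, Nr2f2, Tcf21 and Gli1 encode transcription factors: a T-box repressor, the orphan nuclear receptor COUP-TFII, a basic helix-loop-helix factor of mesenchymal progenitors, and a zinc finger activator that is both an effector and a target of Hedgehog signalling. Pdgfra, Pdgfrb and Ptch1 encode receptors, for PDGF in the first pair and for Hedgehog ligands in the last, and Ptch1 is also a transcriptional target of the pathway. Dcn and Lum encode decorin and lumican, small leucine-rich proteoglycans that bind collagen fibrils. In the GRCm38 build, 4 of the 9 genes lie on chromosome 10. Dcn (ENSMUSG00000019929, chr10:97479609-97518143, plus strand) and Lum (ENSMUSG00000036446, chr10:97565128-97572703, plus strand) are neighbours 46985 bp apart, and Tcf21 (ENSMUSG00000045680, chr10:22817281-22820174, minus strand) and Gli1 (ENSMUSG00000025407, chr10:127329882-127341974, minus strand) lie elsewhere on it. Tbx2 (ENSMUSG00000000093) lies at chr11:85832551-85841948 on the plus strand, Nr2f2 (ENSMUSG00000030551) at chr7:70351944-70366735 on the minus strand, Pdgfra (ENSMUSG00000029231) at chr5:75152292-75198215 on the plus strand and Ptch1 (ENSMUSG00000021466) at chr13:63508328-63573598 on the minus strand. The strand setting of the counting is not given in the sources used here. Exons of Nr2f2 overlap B130024G19Rik, exons of Gli1 overlap Arhgap9 and Gm47200, and exons of Pdgfra overlap Gm42802, Gm42803 and Mir7025. Reads in these overlaps may have been set aside as reads on no single gene, which would lower the counts of these members.

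RefSeq promoter sequences of GRCm38.p6 were matched for 4 of the 9 genes and are printed to show the start-site regions of 3 members that were high in both Tex15-/- replicates 2 and 3 (Pdgfra, Nr2f2 and Tcf21) beside that of Ptch1, which differed least. Each window runs from 250 bases before to 50 bases after the RefSeq start, 5′ to 3′ on the gene's strand, and capitals mark the letters CANNTG (the E-box class bound by basic helix-loop-helix factors) and GGGCGG (the GC box), searched on both strands. They lie at chr5:75152001-75152300 (plus strand) for Pdgfra, chr7:70366697-70366996 (minus strand) for Nr2f2, chr10:22820094-22820393 (minus strand) for Tcf21 and chr13:63565686-63565985 (minus strand) for Ptch1. The Ptch1 window lies inside the annotated span of the gene, downstream of its outermost start.
Pdgfra: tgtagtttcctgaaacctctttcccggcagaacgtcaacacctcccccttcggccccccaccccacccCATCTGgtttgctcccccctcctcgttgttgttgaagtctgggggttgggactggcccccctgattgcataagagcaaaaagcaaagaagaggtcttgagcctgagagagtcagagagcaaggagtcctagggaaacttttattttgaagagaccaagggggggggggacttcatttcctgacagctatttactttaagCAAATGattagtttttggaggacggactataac
Nr2f2: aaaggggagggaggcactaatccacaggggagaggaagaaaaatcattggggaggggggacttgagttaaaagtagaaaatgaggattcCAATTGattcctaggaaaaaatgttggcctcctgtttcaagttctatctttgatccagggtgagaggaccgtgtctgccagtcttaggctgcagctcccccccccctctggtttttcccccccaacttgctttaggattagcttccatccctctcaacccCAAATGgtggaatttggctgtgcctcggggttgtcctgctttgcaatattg
Tcf21: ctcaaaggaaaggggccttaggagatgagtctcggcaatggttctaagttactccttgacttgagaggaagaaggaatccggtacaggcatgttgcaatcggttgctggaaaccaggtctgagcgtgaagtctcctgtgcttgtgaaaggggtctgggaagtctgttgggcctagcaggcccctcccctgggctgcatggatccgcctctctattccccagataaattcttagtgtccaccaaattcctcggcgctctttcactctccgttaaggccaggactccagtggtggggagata
Ptch1: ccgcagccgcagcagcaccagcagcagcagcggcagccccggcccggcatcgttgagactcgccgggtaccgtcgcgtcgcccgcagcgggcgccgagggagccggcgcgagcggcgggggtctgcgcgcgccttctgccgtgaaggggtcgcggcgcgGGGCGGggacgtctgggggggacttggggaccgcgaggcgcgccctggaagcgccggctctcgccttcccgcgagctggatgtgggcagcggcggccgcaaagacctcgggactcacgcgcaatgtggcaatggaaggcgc
Ptch1 has a CpG-rich window, with 76.3% GC and 47 CpG dinucleotides, above the 90th percentile of all 32851 promoters (69.7% GC and 31 CpG). The other 3 windows are near the median promoter (52.7% GC and 7 CpG), with 51.0% GC and 5 CpG in Pdgfra, 49.7% and 2 in Nr2f2 and 53.3% and 8 in Tcf21. CANNTG occurs at 2 places in Pdgfra, and at 2 places in Nr2f2, while 72.3% of all promoters hold it at least once. GGGCGG occurs once, in Ptch1, and is held by 35.7% of all promoters. The letters GACCACCC (the core of a GLI site, in 0.807% of all promoters), TATAAA (13.6%) and AGGTCA (a nuclear receptor half-site, 16.3%) were found in none of the 4 windows. No measurement of binding or chromatin was analysed here.

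Each library had from 4893265 to 5697020 reads on genes. Tex15, the targeted gene, had 1509 to 1667 counts-per-million (CPM, scaled for library composition by edgeR's TMM factors) in controls and 469, 230 and 249 CPM in Tex15-/- replicates 1, 2 and 3, so every knockout library was below every control. The 10 germ cell markers summed to 3186 to 3335 CPM in controls and to 3100.1, 3228 and 3303 CPM in the 3 Tex15-/- libraries, although 2 of the 10, Dazl and Nanos3 (named after their values were seen), were lower in every Tex15-/- library than in every control. The share of all genes that were lower in this way was not computed, so no weight is put on this count. For genes with enough reads, the chi-square per degree of freedom between libraries of 1 group was 3.17 to 6.41 for the control pairs. Among the Tex15-/- libraries it was 6.29 between replicates 1 and 3, within that range, 15.9 between replicates 2 and 3 and 19.8 between replicates 1 and 2, so replicate 2 stood apart. The share of the reads in the tables that were on no counted gene feature was 20.4% to 24.4% in controls. It was 23.3% in Tex15-/- replicate 1, but 11.1% in replicate 2 and 16.04% in replicate 3. Such reads may lie between genes or in introns, which were not told apart. Tex15-/- replicates 2 and 3, the libraries with this lower share, are also those in which the interstitial genes were high, and the part of this difference in the results was not tested. Results are therefore given per library before any group comparison.

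In control gonocytes the 9 genes were present at low levels, and in Tex15-/- gonocytes their level differed more between libraries of the group than between the groups. Their reads summed to 92.0, 98.3 and 105 CPM in the 3 controls. Tex15-/- replicate 1 had 97.8 CPM, which lies within that range, whereas replicate 2 had 698 CPM and replicate 3 had 224 CPM, 7.10-fold and 2.28-fold the control mean. Without Ptch1, which held the most reads in controls, the other 8 genes summed to 43.0, 47.5 and 43.3 CPM in controls and to 47.7, 599.9 and 175 CPM in Tex15-/- replicates 1 to 3, or 1.07-fold, 13.5-fold and 3.94-fold the control mean. All 9 genes had their highest value of the 6 libraries in Tex15-/- replicate 2, where 28.9% of the genes tested had theirs. In bulk RNA, more interstitial cells, more RNA of these genes per cell and expression of these genes in gonocytes cannot be told apart.

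**Figure D1:**
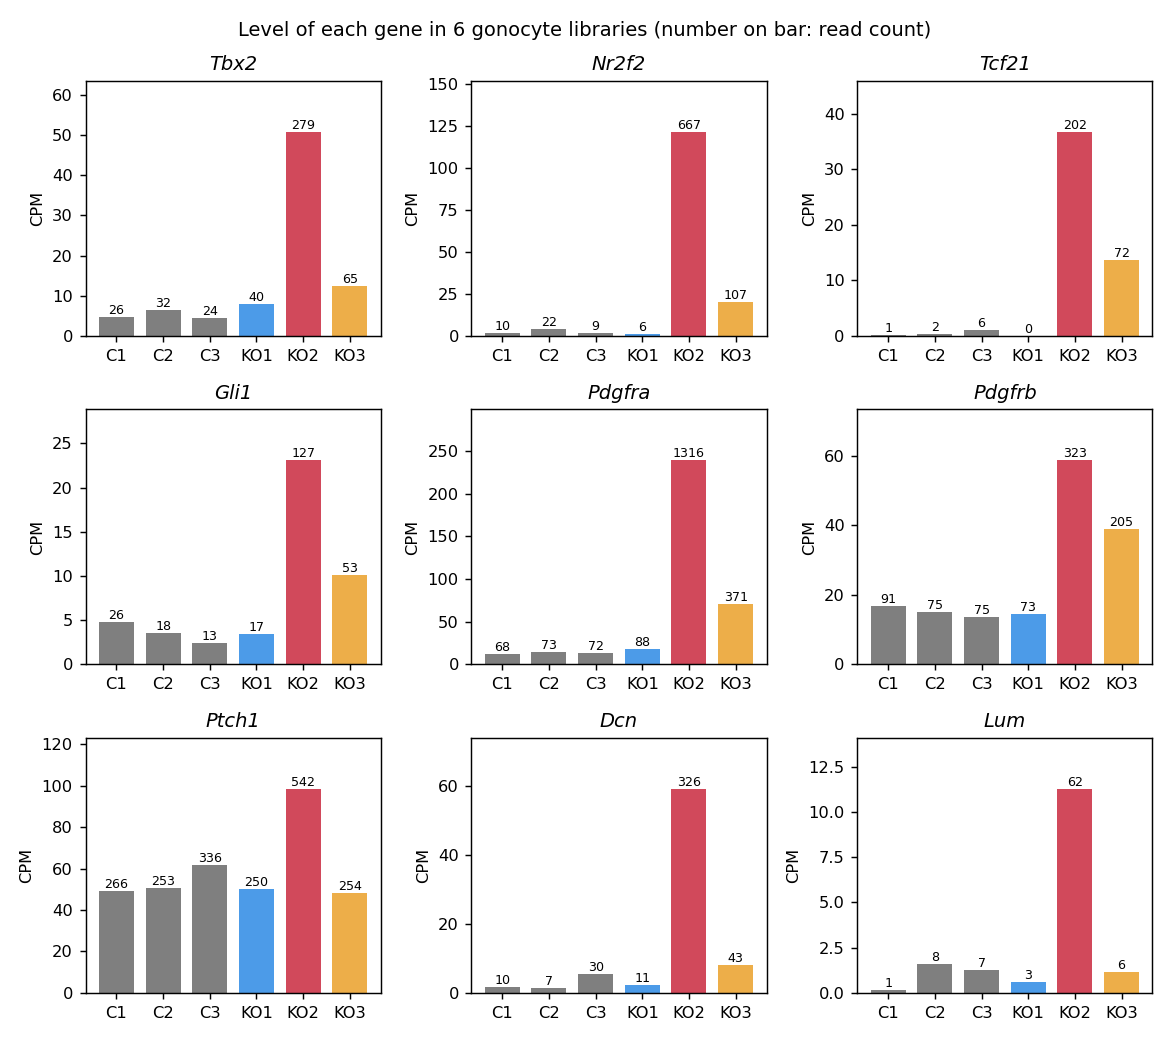
Level of each of the 9 genes in counts-per-million (CPM, bars, each panel with its own axis from 0) in control libraries 1 to 3 (C1 to C3) and Tex15-/- libraries 1 to 3 (KO1 to KO3), with the number of reads on each bar. Every panel has its highest bar in KO2, and in all panels except Ptch1 and Lum KO3 is above every control.

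Nr2f2 had the largest fitted difference between the groups among the 7 members that passed the filter on low counts. Nr2f2 passed only because Tex15-/- replicates 2 and 3, where it was high, had enough reads. Its rank is therefore not independent of those libraries. Its counts were 10, 22 and 9 in controls against 6, 667 and 107 in Tex15-/- replicates 1 to 3, or 1.84, 4.41 and 1.65 CPM against 1.20, 121 and 20.4 CPM. Tex15-/- replicate 1 was thus below every control, and replicates 2 and 3 were above every control by 46.9-fold (95% counting interval 34.2 to 66.0) and 7.88-fold (5.45 to 11.6) relative to the pooled controls. These intervals, here and below, cover counting error only, and the reads carry no molecular identifiers. They leave out the spread between libraries, which was beyond counting error even among controls (chi-square per degree of freedom 3.17 to 6.41). An interval that excludes 1 therefore does not show a difference beyond that spread. The group means were 2.63 ± 1.54 and 47.6 ± 64.5 CPM (SD, n = 3 each), and the quasi-likelihood test of edgeR gave a log2 fold change of 4.19 with a standard error of 1.14 and an adjusted p of 0.460 (Benjamini-Hochberg, over 16311 genes).

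Tcf21 had few or no reads in 4 of the libraries. It had 1, 2 and 6 reads in controls, 0 in Tex15-/- replicate 1, where 3 counts would be 0.601 CPM, and 202 and 72 in replicates 2 and 3. This was 0.184 to 1.10 CPM in controls against 36.7 and 13.7 CPM, or 64.7-fold (33.4 to 144) and 24.2-fold (12.0 to 55.0) the pooled controls. It did not pass the filter on low counts, since only 2 libraries had enough reads, and so was tested with all 6 libraries only where no filter was applied.

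Tbx2 was 1 of 2 members that were higher in every knockout library than in every control. Its counts were 26, 32 and 24 in controls against 40, 279 and 65 in Tex15-/- replicates 1 to 3, or 4.40 to 6.42 CPM against 8.02, 50.7 and 12.4 CPM. Replicate 1 was 1.55-fold the pooled controls (1.04 to 2.29), replicate 2 was 9.81-fold (7.64 to 12.7) and replicate 3 was 2.39-fold (1.70 to 3.36). By edgeR the log2 fold change was 2.19 with a standard error of 0.598 and an adjusted p of 0.460, from group means of 5.20 ± 1.07 and 23.7 ± 23.5 CPM (SD, n = 3).

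Gli1 had the smallest difference among the transcription factors. Its counts were 26, 18 and 13 in controls against 17, 127 and 53 in Tex15-/- replicates 1 to 3, or 2.38 to 4.79 CPM against 3.41, 23.1 and 10.1 CPM. Replicate 1 lay among the controls, and replicates 2 and 3 were 6.42-fold (4.66 to 8.94) and 2.81-fold (1.89 to 4.15) the pooled controls. The group means were 3.60 ± 1.21 and 12.2 ± 10.001 CPM (SD, n = 3), and edgeR gave a log2 fold change of 1.76 with a standard error of 0.584 and an adjusted p of 0.460.

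Among the receptors, Pdgfra had the most reads in the knockout and the smallest p-value of the members. It had 68, 73 and 72 reads in controls and 88, 1316 and 371 in Tex15-/- replicates 1 to 3, or 12.5, 14.6 and 13.2 CPM against 17.6, 239 and 70.6 CPM. The groups did not overlap, and even replicate 1 was 1.31-fold the pooled controls, with a counting interval of 1.01 to 1.69 that only just excludes 1. Replicate 2 was 17.8-fold (15.4 to 20.7) and replicate 3 was 5.26-fold (4.43 to 6.25). Its log2 fold change of 3.02 had a standard error of 0.701 and an adjusted p of 0.460 in edgeR, from 13.5 ± 1.07 and 109 ± 116 CPM (SD, n = 3).

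Pdgfrb (ENSMUSG00000024620), the receptor of perivascular and other mesenchymal cells, had the most even excess over Tex15-/- replicates 2 and 3. Its counts were 91, 75 and 75 in controls against 73, 323 and 205 in Tex15-/- replicates 1 to 3, or 13.7 to 16.8 CPM against 14.6, 58.7 and 39.0 CPM. Replicates 2 and 3 were 3.86-fold (3.26 to 4.58) and 2.57-fold (2.12 to 3.11) the pooled controls, while replicate 1 lay within the control range. By edgeR the log2 fold change was 1.30 with a standard error of 0.388 and an adjusted p of 0.460, from 15.2 ± 1.52 and 37.4 ± 22.1 CPM (SD, n = 3).

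Ptch1 differed least. It had 266, 253 and 336 reads in controls and 250, 542 and 254 in Tex15-/- replicates 1 to 3, or 49.0, 50.7 and 61.6 CPM against 50.1, 98.5 and 48.3 CPM. Only replicate 2 was above the controls, at 1.83-fold (1.64 to 2.04), and replicate 3, in which all members except Ptch1 and Lum were above every control, was 0.897-fold (0.777 to 1.03). Its log2 fold change of 0.29 had a standard error of 0.247 and an adjusted p of 0.712 in edgeR, from 53.8 ± 6.80 and 65.6 ± 28.5 CPM (SD, n = 3).

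The neighbouring proteoglycan genes Dcn and Lum were both high in Tex15-/- replicate 2, but only Dcn was above the controls in replicate 3. Dcn had 10, 7 and 30 reads in controls and 11, 326 and 43 in Tex15-/- replicates 1 to 3, or 1.84, 1.40 and 5.50 CPM against 2.20, 59.2 and 8.18 CPM. Its ratio to the pooled controls was 19.997 (14.7 to 27.8) in replicate 2 and 2.76 (1.78 to 4.27) in replicate 3, where control replicate 3, at 5.50 CPM, was the nearest control. Its log2 fold change of 2.98 had a standard error of 0.976 and an adjusted p of 0.460 in edgeR, from 2.92 ± 2.25 and 23.2 ± 31.3 CPM (SD, n = 3).

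Lum had few reads throughout, with 1, 8 and 7 in controls and 3, 62 and 6 in Tex15-/- replicates 1 to 3. In CPM this was 0.184 to 1.60 in controls and 0.601, 11.3 and 1.14 in the knockout, so replicate 3 lay within the control range. Replicate 2 was 11.2-fold the pooled controls (6.37 to 20.7) and replicate 3 was 1.13-fold, with an interval of 0.363 to 3.05 that leaves room for a difference of the size seen in Dcn. Lum did not pass the filter either, and was likewise tested only where no filter was applied.

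**Figure D2:**
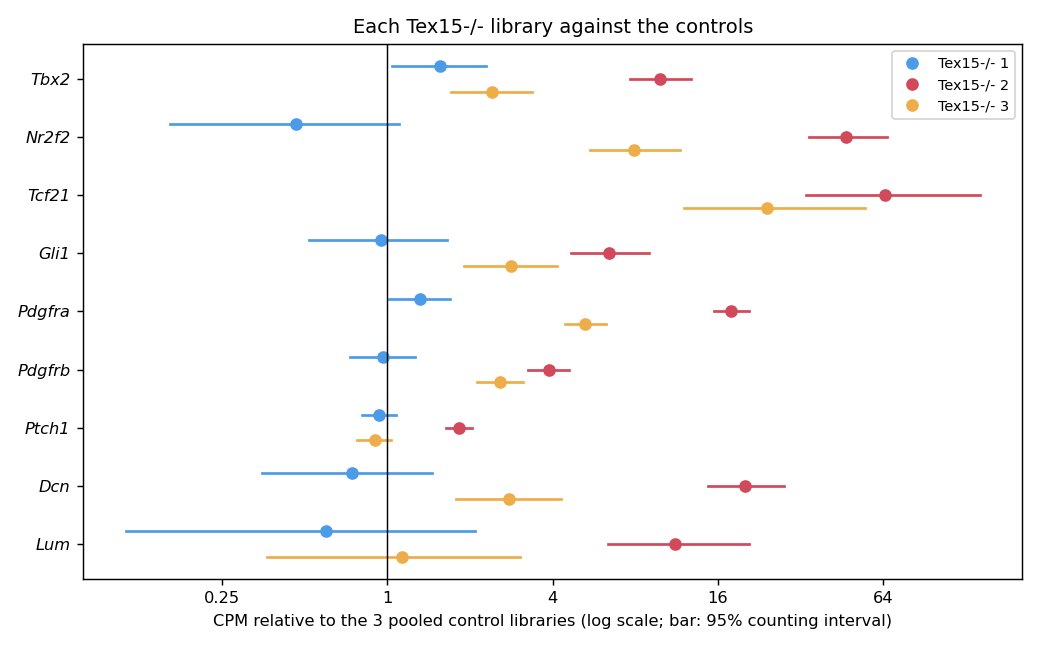
Ratio of the CPM of each gene in each Tex15-/- library to the 3 pooled control libraries (points, log axis), with the 95% counting interval as a bar and a vertical line at 1. Replicate 2 lies to the right of 1 for all 9 genes and replicate 3 for 7 of them with an interval that excludes 1, while the intervals of replicate 1 include 1 except for Tbx2 and Pdgfra, and Tcf21 has no point there because it had 0 reads.

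Of the 9 genes, 7 passed the filter on low counts, and none of the 7 was called by edgeR at an adjusted p under 0.01, nor was any of the 16311 genes tested (0%). At an unadjusted p under 0.05, 6 of the 7 were higher in Tex15-/- gonocytes and Ptch1 was the exception, against 6.05% of all genes tested that were higher at this level. Among the 6, Nr2f2 passed the filter only through the Tex15-/- libraries where it was high, and Dcn also needed reads from those libraries. For these genes the filter and the test draw on the same high values. DESeq2 likewise called 0 of the 7, with 6 at an unadjusted p under 0.05, beside 1340 genes at this level, in either direction, over all genes. The median log2 fold change of the 7 was 2.19, beside −0.00031 over all genes tested. Tbx2 and Pdgfra were the 2 of 9 members with every Tex15-/- library above every control, which 6.51% of the genes tested also were.

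The call depended on Tex15-/- replicate 1. Without that library, 6 of the 7 members that passed the filter with all 6 libraries were called higher at an adjusted p under 0.01, where 1.69% of the genes tested were called higher. They were Nr2f2 with a log2 fold change of 4.78, Pdgfra with 3.54, Dcn with 3.53, Tbx2 with 2.62, Gli1 with 2.22 and Pdgfrb with 1.70, all by edgeR. Ptch1, at 0.47 (adjusted p = 0.244 by edgeR), was not among them. Tcf21, with 1, 2 and 6 reads in controls, was also called (log2 fold change 5.44), but it passed the filter only through the Tex15-/- libraries where it was high and so had to differ. With all 6 libraries, Nr2f2 too had passed the filter only through those libraries. The size depended on Tex15-/- replicate 2. Without it the log2 fold change was 2.05 for Nr2f2, 1.72 for Pdgfra, 0.98 for Tbx2, 0.91 for Gli1, 0.83 for Pdgfrb, 0.83 for Dcn and −0.12 for Ptch1, and none of the 7 was called. With no filter on low counts, 7 of the 9 were called higher with all 6 libraries, against 1.05% of the genes tested. These were again the members other than Ptch1 and Lum, and Lum then had a log2 fold change of 2.13 (adjusted p = 0.0458 by edgeR). With replicate 1 as the sole Tex15-/- library, a comparison added after the values were seen, the log2 fold changes of the 7 lay between −1.10 for Nr2f2 and 0.63 for Tbx2, and none was called.

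**Figure D3:**
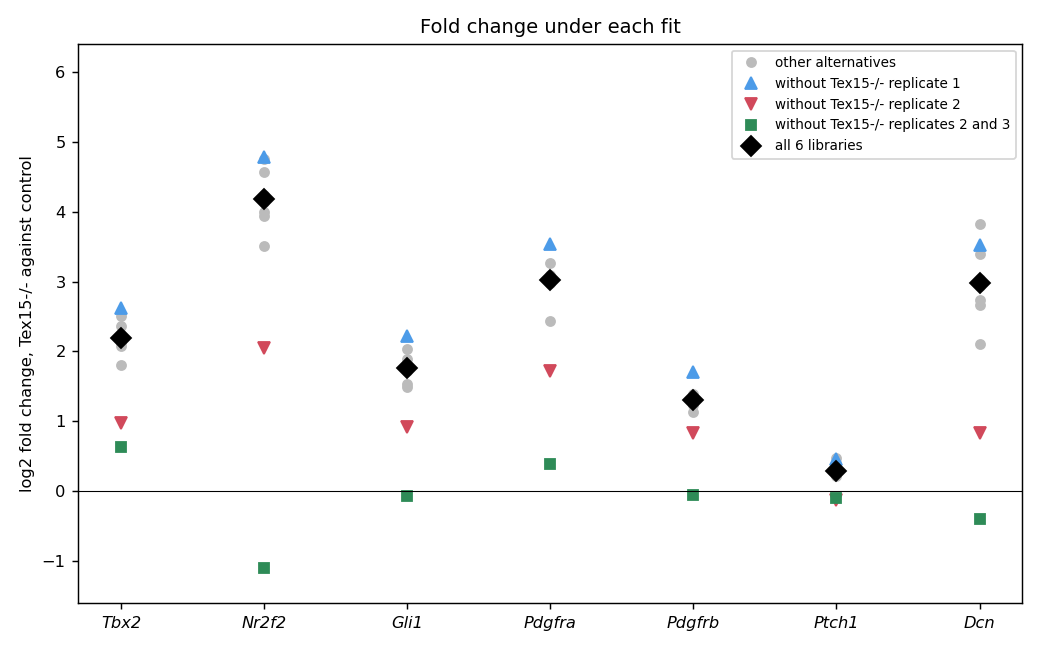
Log2 fold change of Tex15-/- against control (vertical axis) for the 7 genes that passed the filter, with all 6 libraries (diamonds) and under each alternative. Without Tex15-/- replicate 2 (downward triangles) the values are lower for all 7 genes, and without replicates 2 and 3 (squares) 5 of the 7 are below 0.

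The excess in Tex15-/- replicate 3 relative to replicate 2 varied over the members. The excess over the control mean in Tex15-/- replicate 3 was 54.8% ± 7.55 of the excess in replicate 2 for Pdgfrb, 36.4% ± 5.19 for Tcf21 and 33.3% ± 8.28 for Gli1 (standard errors from counting and the spread of the controls). It was 25.3% ± 1.80 for Pdgfra, 15.8% ± 3.71 for Tbx2 and 15.0% ± 1.87 for Nr2f2. It was 9.35% ± 3.09 for Dcn, 1.15% ± 6.16 for Lum and −12.2% ± 12.0 for Ptch1. The ratio was higher for Pdgfrb than for Pdgfra by more than these errors, and lower for Dcn than for Pdgfra. For the knockout libraries, however, the errors cover counting only. The spread between replicates 2 and 3 was beyond counting error (chi-square per degree of freedom 15.9). No difference between members beyond that spread is therefore shown. Each ratio compares 2 single libraries and has no replicate.

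The make-up of the reads on the 9 genes differed between libraries as well as their sum. Ptch1 held 51.6% to 58.7% of these reads in controls and 51.2% in Tex15-/- replicate 1, but 14.1% in replicate 2 (95% Wilson interval 13.0 to 15.2, of 3844 reads) and 21.6% in replicate 3 (19.3 to 24.0, of 1176 reads). Pdgfra held 12.6% to 14.9% in controls and 18.03% in replicate 1, but 34.2% (32.8 to 35.8) in replicate 2 and 31.5% (29.0 to 34.3) in replicate 3. The share of Nr2f2 was 1.57% to 4.49% in controls, 17.4% (16.2 to 18.6) in replicate 2 and 9.10% (7.59 to 10.9) in replicate 3. Tcf21 held 0.2004% to 1.05% in controls against 5.25% and 6.12% in replicates 2 and 3, so its share, unlike that of Nr2f2, was alike in the 2 libraries. Tex15-/- replicate 1 was nearer to the controls, with Pdgfra and Tbx2 (8.20%) above their range and Ptch1, Nr2f2 and Tcf21 below it.

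**Figure D4:**
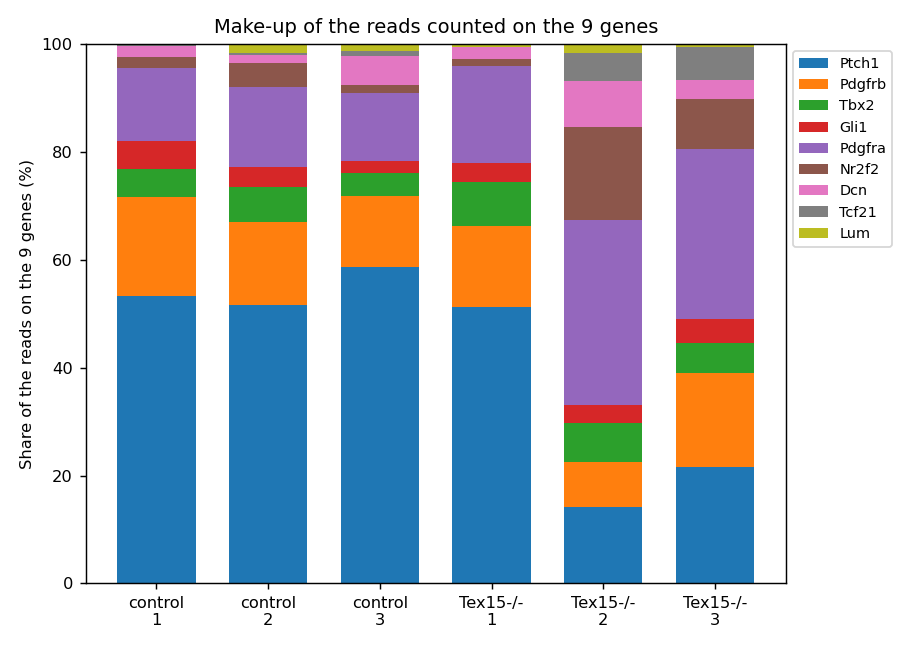
Share of the reads counted on the 9 genes that each gene took (stacked bars, percent) in the 3 control and 3 Tex15-/- libraries. Ptch1 is the largest part of the bar in the controls and Tex15-/- replicate 1, and Pdgfra is the largest in Tex15-/- replicates 2 and 3.

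Levels of different genes were compared per kilobase of exon. In controls, Ptch1 was highest with 3.79 ± 0.480 CPM per kb, followed by Pdgfrb with 2.77 ± 0.278 (SD, n = 3), and the ranges of the libraries separated these from each other and from the rest. Tbx2 with 1.43 ± 0.295 and Pdgfra with 1.34 ± 0.107 CPM per kb could not be ordered, and Gli1 followed with 0.720 ± 0.241 (SD, n = 3), which overlapped Dcn. Dcn, Lum, Nr2f2 and Tcf21 had 0.499 ± 0.385, 0.418 ± 0.304, 0.305 ± 0.179 and 0.239 ± 0.204 CPM per kb, and each overlapped the next in the order. By the longest transcript instead, Pdgfra had 1.97 CPM per kb against 1.43 for Tbx2, and Nr2f2 had 0.624 CPM per kb, above Dcn with 0.621 and Lum with 0.418. In Tex15-/- replicate 2 the order, over the exons of all transcripts, was another. Pdgfra led with 23.9 CPM per kb, followed by Tcf21 with 15.6, Nr2f2 with 14.1, Tbx2 with 14.0, Pdgfrb with 10.7, Dcn with 10.1, Ptch1 with 6.94, Gli1 with 4.62 and Lum with 4.60. Ptch1 thus went from first to seventh place, while the places next to Pdgfra were close together and rest on 1 library and on the exon length used.

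The other Hedgehog pathway genes were mixed, and 7 of 14 were highest in Tex15-/- replicate 2, beside 28.9% of all genes tested. The 14 pathway genes summed to 288 to 304 CPM in controls and to 304, 404 and 307 CPM in Tex15-/- replicates 1 to 3, and 12 passed the filter. None was called by edgeR, 1 was higher and 0 lower at an unadjusted p under 0.05 (6.05% of all genes tested were higher), and their median log2 fold change was 0.18. Gli3, which is mostly processed to a repressor and had the highest mean level of the list, had 62.1 to 73.4 CPM in controls and 71.9, 65.6 and 60.1 CPM in the knockout. The one gene with an unadjusted p under 0.05 was Boc, a Hedgehog co-receptor, with 4.03 to 6.82 CPM in controls and 6.41, 28.2 and 11.2 CPM in Tex15-/- replicates 1 to 3. Among genes named after their values were seen, the activator Gli2 had 3.41 to 5.53 CPM in controls and 2.004, 24.0 and 6.47 CPM in the knockout, the transducer Smo had 12.8 to 20.6 and 15.6, 48.1 and 23.6 CPM, and the co-receptor Gas1 had 0 to 6 reads in controls and 3, 62 and 11 reads. Hhip, a Hedgehog-binding protein and pathway target named after its values were seen, had 21, 30 and 24 reads in controls against 29, 109 and 23 in Tex15-/- replicates 1 to 3. Dhh, the Sertoli cell ligand, also named after its values were seen, had 4, 19 and 9 reads in controls and 3, 21 and 34 reads in Tex15-/- replicates 1 to 3, and was highest in replicate 3.

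The 4 PDGF ligand genes were low in every library, with summed levels of 8.43 to 10.4 CPM in controls and 7.82, 28.2 and 18.5 CPM in Tex15-/- replicates 1 to 3. Of the 2 that passed the filter, Pdgfa, a ligand of PDGFRA, had a log2 fold change of 1.06 (adjusted p = 0.517 by edgeR, unadjusted p under 0.05), with 4.03 to 5.35 CPM in controls and 3.61, 13.8 and 12.6 CPM in the knockout. None was called.

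The other small leucine-rich proteoglycans did not move with Dcn and Lum as a list. The 10 genes summed to 43.9 to 53.5 CPM in controls and 48.9, 95.02 and 45.7 CPM in Tex15-/- replicates 1 to 3. Of these genes 7 passed the filter, with 0 called and a median log2 fold change of −0.21. By edgeR, 1 was higher at an unadjusted p under 0.05, beside 6.05% of all genes tested. Podn, the one with the highest mean level, had 11.2 to 14.7 CPM in controls and 12.0, 11.4 and 17.3 CPM in the knockout. The one with an unadjusted p under 0.05 was Bgn (biglycan), with 5, 20 and 6 reads in controls and 2, 346 and 56 in Tex15-/- replicates 1 to 3, or a log2 fold change of 3.63 (adjusted p = 0.460 by edgeR). Bgn passed the filter only through the Tex15-/- libraries where it was high. It alone had 62.9 of the 95.02 CPM of the list in Tex15-/- replicate 2. Of the 10 genes, 2 were highest in that library, beside 28.9% of all genes tested.

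Marker genes of the testis cell types also differed between the Tex15-/- libraries. Of the 16311 genes tested by edgeR, 1501 had an unadjusted p under 0.05, and 987 of these (6.05% of all tested) were higher. The counts of genes higher or lower at this level given for these lists stand beside those numbers. The 17 interstitial and mesenchymal markers, 14 of which passed the filter, summed to 297 to 318 CPM in controls and 297, 2153 and 657 CPM in Tex15-/- replicates 1 to 3, with 10 higher at an unadjusted p under 0.05, 0 called by edgeR and a median log2 fold change of 1.98. Nes, the intermediate filament nestin and the highest of these on average, differed little, with 143 to 165 CPM in controls and 156, 192 and 153 CPM in the knockout. Collagens, named after their values were seen, differed more: Col3a1 had 67, 87 and 79 reads in controls and 50, 3301 and 663 in Tex15-/- replicates 1 to 3, and Col1a2 had 32, 39 and 41 reads against 39, 2061 and 454. Col1a1, Col1a2 and Col3a1 had 383, 374 and 600 of the 2153 CPM of the list in replicate 2. Of the 17 genes, 15 were highest in replicate 2, beside 28.9% of all genes tested. Thy1 and Tagln, also named after their values were seen, were not. The 14 further mesenchymal transcription factors, 10 of them tested, summed to 65.8 to 76.1 CPM in controls and 69.1, 252 and 98.0 CPM in the knockout, with 5 higher at an unadjusted p under 0.05, 0 called and a median log2 fold change of 1.19. Nr2f6, a relative of Nr2f2 and the highest of this list, had 35.9 to 44.2 CPM in controls and 41.7, 44.0 and 39.0 CPM in the knockout.

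Leydig cell markers, 7 of 8 tested, summed to 45.9 to 91.4 CPM in controls and 65.9, 713 and 237 CPM in Tex15-/- replicates 1 to 3, with 7 higher at an unadjusted p under 0.05 and a median log2 fold change of 2.90. Cyp17a1, a steroidogenic enzyme with the highest mean over the 6 libraries, though not in controls, had 2.40 to 16.2 CPM in controls and 11.2, 243 and 80.1 CPM in the knockout, and Insl3, the insulin-like hormone of Leydig cells, named after its values were seen, was at 0 in all controls and Tex15-/- replicate 1, with 29 and 2 reads in replicates 2 and 3. Sertoli cell markers, 5 of 10 tested, summed to 48.9 to 55.3 CPM in controls and 43.9, 219 and 175 CPM in the knockout, with 4 higher and 1 lower at an unadjusted p under 0.05 and a median log2 fold change of 1.51. Clu (clusterin), the highest of them, had 32.7 to 37.2 CPM in controls and 28.5, 98.5 and 91.5 CPM in Tex15-/- replicates 1 to 3. None of the Leydig or Sertoli cell genes was called by edgeR.

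Endothelial markers, 7 of 8 tested, summed to 81.9 to 94.2 CPM in controls and 78.4, 276 and 90.01 CPM in Tex15-/- replicates 1 to 3, with 2 higher at an unadjusted p under 0.05 and a median log2 fold change of 0.78. Cdh5, the junction protein VE-cadherin, had the highest mean over the 6 libraries through Tex15-/- replicate 2 alone, with 19.9 to 23.1 CPM in controls and 16.03, 88.7 and 16.7 CPM in the knockout. Blood and macrophage markers, 3 of 8 tested, summed to 13.8 to 15.6 CPM in controls and 13.0, 45.6 and 52.1 CPM in the knockout, with 1 higher at an unadjusted p under 0.05 and a median log2 fold change of 1.33. Csf1r, a macrophage receptor and the highest of them, had 4.40 to 6.22 CPM in controls and 5.01, 16.9 and 20.2 CPM in Tex15-/- replicates 1 to 3, and the globin gene Hba-a1, named after its values were seen, was at 0 except for 4 and 2 reads in replicates 2 and 3. None of these genes was called by edgeR.

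The lists differed in how replicate 3 compared with replicate 2. The excess over the control mean in replicate 3 was 20.9% of that in replicate 2 for the 9 members, 19.0% for the interstitial and mesenchymal markers and 26.4% for the Leydig cell markers. It was 73.5% for the Sertoli cell markers, 0.267% for the endothelial markers and 121% for the blood and macrophage markers. Of 9 germ cell markers tested by edgeR, 0 were higher and 1 was lower at an unadjusted p under 0.05. Over all 16311 genes tested, 1501 were at this level, 987 of them higher. The median log2 fold change of the germ cell markers was −0.06. Piwil2, with the highest mean of them over the 6 libraries, had 693 to 737 CPM in controls and 695, 748 and 747 CPM in the knockout. The part that cells of these other types had in the level of the 9 members was not tested.

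**Figure D5:**
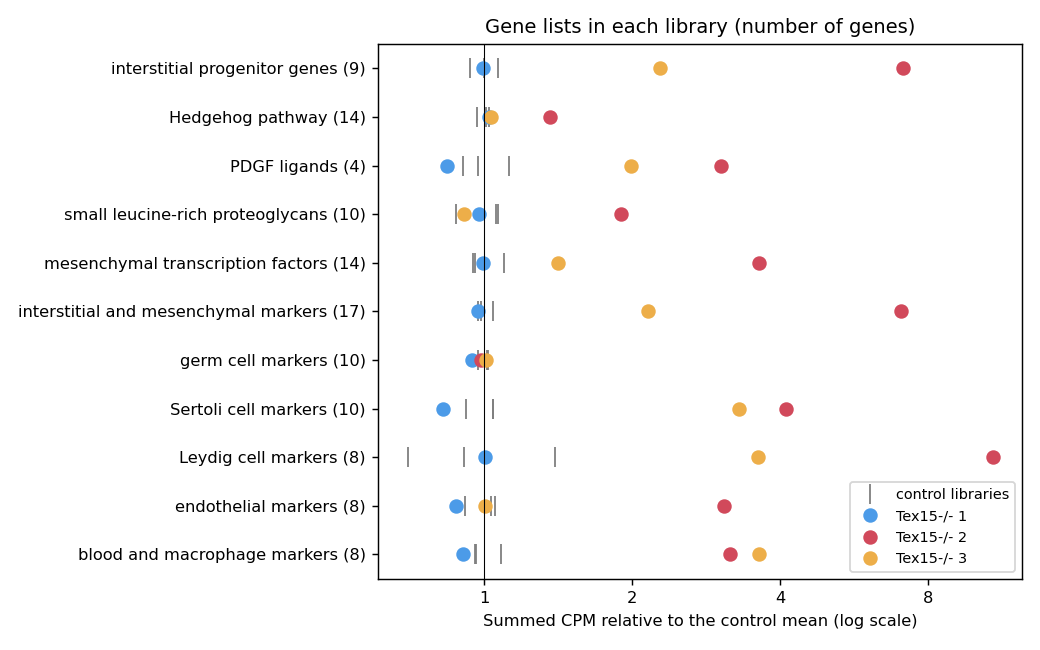
Summed CPM of each gene list (number of genes in brackets) relative to its control mean (log axis) in the 3 control libraries (grey ticks) and the 3 Tex15-/- libraries (points). Tex15-/- replicate 1 stays near or below 1 in every list, replicate 2 lies furthest right in all lists other than the germ cell and the blood and macrophage markers, and the germ cell markers are at about 1 in every library.

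The 5 genes most like the 7 tested members were chosen by the mean difference over the 6 libraries between their centred log2 CPM and the mean centred log2 CPM of the members, among 16304 other genes. They were Hist1h1c, a linker histone, with a difference of 0.090, Col6a1, a chain of collagen VI, with 0.097, Timp2, an inhibitor of metalloproteinases, with 0.11, Flna, an actin cross-linker, with 0.12, and Itih5, a protein of the extracellular matrix, with 0.12. Col6a1 had 17.5, 23.3 and 21.4 CPM in controls and 22.8, 189.5 and 64.9 CPM in Tex15-/- replicates 1 to 3, and Timp2 had 3.69, 3.21 and 3.85 CPM against 3.21, 32.7 and 10.7 CPM. The members themselves lay further from their own mean, from 0.25 for Tbx2 and 0.28 for Gli1 to 0.89 for Ptch1 and 0.97 for Nr2f2. The 5 genes were picked as the nearest of 16304, so this contrast was set by the choice and no conclusion is drawn from it. The likeness is over 6 libraries that share 1 pattern and is given as a description.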

How the data were processed

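RNA-seq of sorted E16.5 gonocytes (3 Tex15+/- control and 3 Tex15-/- libraries) was used. The libraries were made after depletion of ribosomal RNA with a stranded low-input kit. The authors aligned the reads to GRCm38 using HISAT2, and the deposited files hold raw counts of reads on each gene from htseq-count (HTSeq 0.11.1). The 5 summary entries for reads on no single gene, 61.3% to 67.3% of each table, were left out of the gene counts. The GENCODE vM21 annotation named 54723 (99.8%) of the 54838 genes and also gave positions and exon lengths. Small RNA, repeat and postnatal tables were not used.

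The comparison used edgeR 4.0.16 under R 4.3.3, with TMM factors, filterByExpr (minimum count 10, minimum total 15), the quasi-likelihood test and Benjamini-Hochberg adjustment over all genes tested. A gene was called at an adjusted p under 0.01, the threshold that the paper states for its transposon RNA comparison. The main text of the paper gives no threshold for genes. The prior count was 2 for log2 CPM. The quasi-likelihood test prints no standard error, so each one given is the absolute log2 fold change divided by the square root of the F statistic. Other values were computed with Python 3.11.15, pandas 2.3.3 and scipy 1.17.1. Ratios to the pooled controls have exact 95% intervals from the counts, and shares have Wilson intervals. The edgeR step was tested on simulated counts with the same spread in every library. That test therefore does not cover knockout libraries as unequal as these. The gene count total was 5446306, 4893265 and 5561189 in controls against 5013736, 5697020 and 5381889 in Tex15-/- replicates 1 to 3.

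Alternatives were DESeq2 1.42.0, library totals without TMM factors, a filter of 10 counts in every library or no filter, a threshold of 0.05, the newer quasi-likelihood estimate, a replicate block, and the omission of each library in turn. Tex15-/- replicates 2 and 3 left out together, and DESeq2 with an adjusted p under 0.05, were added after seeing the data. The 9 genes, the gene lists and the tests were chosen with earlier results of these data known. Named genes are the 9, Tex15, in each list every gene with an adjusted p under 0.05 (there was none) and the one with the highest mean CPM, and the 5 genes most like the members. For any other gene the text says that its values were seen first, or that it was the single gene of a count. Promoter sequences are from RefSeq (GRCm38.p6).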

Additional observations from a re-analysis of the deposited data

How the results depend on the processing

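The count of called members was 0 of 7 with all 6 libraries and stayed 0 under DESeq2 (also with an adjusted p under 0.05), without TMM factors, with at least 10 counts in every library (5 members tested), with the newer quasi-likelihood estimate and with an adjusted p under 0.05. It was 7 with no filter on low counts, where the median prior degrees of freedom were infinite rather than 6.73, so that genes shared 1 estimate of the spread. Over the fits that left out 1 library it ranged from 0 to 7, with 7 only without Tex15-/- replicate 1, where Tcf21 was among them and passed the filter only through the libraries where it was high. The log2 ratio of the summed CPM of the 9 genes was 1.79, and 0.71 (without Tex15-/- replicate 2) to 2.23 (without Tex15-/- replicate 1) with 1 library left out. Of 89 values for single members under the alternatives, 71 kept their direction and side of the threshold, 12 were newly past it and 6 changed sign. The changes of sign were Ptch1 at −0.12 without Tex15-/- replicate 2 (range −0.12 to 0.48 with 1 library left out), and, without Tex15-/- replicates 2 and 3 together, Nr2f2 at −1.10, Dcn at −0.40, Ptch1 at −0.10, Gli1 at −0.076 and Pdgfrb at −0.053, where the lone knockout library was assumed to vary like the controls and the libraries left out held the high counts. Without control replicate 3, Dcn had a log2 fold change of 3.82 in place of 2.98, and without control replicate 2, Nr2f2 had 4.76 in place of 4.19.

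Over all genes, the number called was 0 with all 6 libraries, 3 at an adjusted p under 0.05, 14 with DESeq2, 38 with DESeq2 at an adjusted p under 0.05, 488 with no filter, 1 with at least 10 counts in every library, 2 with the newer quasi-likelihood estimate, 388 without Tex15-/- replicate 1, 5 without Tex15-/- replicate 2, 1 without control replicate 1 and 18 without Tex15-/- replicates 2 and 3. The cause of these differences was not tested. The highest control level per kilobase was 15.9-fold the lowest with all exons and 16.49-fold with the longest transcript, and 5 of the 9 genes changed rank. The planned count of small RNA reads on the members was not run, since those tables give no gene name for such reads.

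The libraries share only a replicate number. The correlations of the deviations of same-numbered libraries were −0.14, −0.043 and −0.0075, and no library correlated best with its own number. With the replicate number as a block, 0 of 7 members were called, and the log2 fold changes were 3.51 for Nr2f2, 2.43 for Pdgfra, 2.10 for Dcn, 1.80 for Tbx2, 1.49 for Gli1, 1.13 for Pdgfrb and 0.22 for Ptch1. Depth limits Tcf21 and Lum most, with at most 8 reads in any control.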

Other observations

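Most of the other small leucine-rich proteoglycan genes were not higher in Tex15-/- replicate 2, where Dcn and Lum were high. Epyc and Kera, named after their values were seen, were among them. Epyc (epiphycan) had 19, 28 and 42 reads in controls and 33, 2 and 6 in Tex15-/- replicates 1 to 3, or 5.60 ± 2.10 CPM (SD, n = 3) in controls against 0.363 and 1.14 CPM in replicates 2 and 3. Kera (keratocan) had 3, 5 and 9 reads in controls and 4, 0 and 3 in the knockout. Omd (osteomodulin) had 20, 20 and 29 reads in controls and 19, 8 and 4 in Tex15-/- replicates 1 to 3, and Aspn (asporin) had 43, 53 and 36 reads against 44, 28 and 17. None of the 4 was called by edgeR, and Kera did not pass the filter. Fgf9, a growth factor of the Sertoli list also named after its values were seen, was likewise lower in replicates 2 and 3, with 24, 15 and 11 reads in controls and 11, 1 and 3 in the knockout (log2 fold change −1.68, adjusted p = 0.541 by edgeR).

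Inhba, which encodes the activin beta A subunit and was named after its values were seen, had 3, 9 and 8 reads in controls and 8, 587 and 110 in Tex15-/- replicates 1 to 3. It was 83.7-fold the control mean in replicate 2 and 16.4-fold in replicate 3, beside 46.0-fold and 7.73-fold for Nr2f2 and 65.3-fold and 24.4-fold for Tcf21. The control mean of Inhba was only 1.27 CPM. Such folds were not limited to interstitial genes: the Sertoli list gene Amh, named after its values were seen, was 65.8-fold and 53.5-fold. Amh had only 1, 1 and 5 reads in controls, a mean of 0.434 CPM, against 9, 157 and 122 in Tex15-/- replicates 1 to 3. Replicate 1 was thus also above every control for Amh. Neither Inhba nor Amh passed the filter on low counts.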
